A study of Mus musculus with 3 samples.

Results

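The cadherins and protocadherins were examined in a ChIP-seq survey of H2AK119ub, histone H2A carrying ubiquitin on a lysine of its tail, in newborn mouse tongue epithelium. The set was chosen by gene symbol alone, namely Cdh or Pcdh followed by a digit, and the clustered Pcdha, Pcdhb and Pcdhg genes. It held 93 genes of a RefSeq gene table of the assembly GRCm38.p6, of which 92 were protein-coding. The autosomes and X together have 21631 protein-coding genes in that table. The remaining gene, Pcdhgb8, is a transcribed pseudogene. Both H2AK119ub libraries came from control mice at postnatal day 0, from EpCAM-sorted cells of tongues without the circumvallate papillae, and the labels give no strain, sex or further allele. They are described as biological replicates, and nothing in the sources used here says whether animals were pooled. An input library belongs to the series and was not analysed here. Of 7838 called regions in replicate 1, 22 named a gene of the set or overlapped its bounds, and of 8093 in replicate 2, 18 did so.

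Cadherins are calcium-dependent adhesion proteins of the cell surface. Classical cadherins join like cells to like cells and are anchored to the actin skeleton through catenins, and E-cadherin (Cdh1) and P-cadherin (Cdh3) are the classical cadherins of stratified epithelia. Protocadherins act mainly in the nervous system, where the clustered genes give neurons different surface identities. Polycomb repressive complex 1 (PRC1) places H2AK119ub, usually at CpG-rich promoters of genes that are kept silent.

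Marked genes are those whose name the authors gave to a promoter region in each of the 2 replicates. Of the 92 protein-coding genes, 7 were marked (7.61%, exact 95% binomial interval 3.11 to 15.1%), against a background of 8.82% of all protein-coding genes, so the share of the whole set lay near the background. The 7 genes were the protocadherins Pcdh8, Pcdh10, Pcdh12 and Pcdhgc3 and the cadherins Cdh6, Cdh11 and Cdh13. Outside the clusters, 6 of 35 genes were marked (17.1%, interval 6.56 to 33.6%), and within them 1 of 57 (1.75%, interval 0.0444 to 9.39%). The intervals cover counting error only, and clustered genes lie side by side and are not independent. No test between genes was made, so neither share is said to differ from the background.

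In replicate 1, 12 of the 92 genes had a promoter region, where 12.8% of all protein-coding genes had one. In replicate 2, 7 of the 92 did, where 12.4% of all had one. The 5 genes named in a single replicate, Cdh4, Cdh22, Pcdh17, Pcdhgc4 and Pcdhgc5, were all named in replicate 1. Across all protein-coding genes, 1644 were named in a single replicate, and 52.4% of these in replicate 1. With regions of any class that named a gene or overlapped it, 30 of 92 genes had a region in both replicates (32.6%, against a background of 16.8%), and 19 of the 30 were clustered Pcdhg genes reached by the same few regions. Without the clustered genes the count was 11 of 35 (31.4%).

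**Figure D1:**
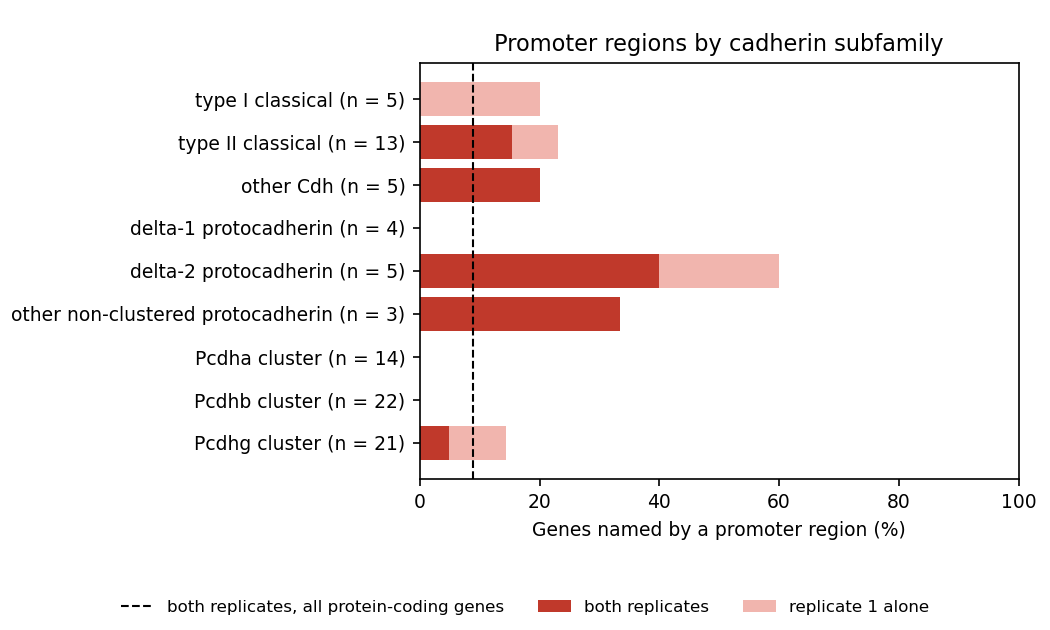
Percent of the protein-coding genes of each cadherin subfamily (vertical axis, with the number of genes) that a promoter region named, as dark bars for both replicates and light bars for replicate 1 alone. The dashed line is the 8.82% of all protein-coding genes named in both replicates. The delta-2 protocadherins reach 40% in both replicates, and the delta-1 protocadherins and the Pcdha and Pcdhb clusters have no bar.

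Among the delta-2 protocadherins, which regulate adhesion and cell movement in the developing brain and embryo, 2 of 5 genes were marked. Pcdh10, an adhesion protein that binds actin regulators, had promoter regions 13.1 kb wide in replicate 1 and 11.4 kb wide in replicate 2, which shared 11141 bp. Relative to the lower-coordinate end of the gene, which is where it starts, they spanned -6.23 to 6.84 kb in replicate 1. In replicate 2 they spanned -4.30 to 7.08 kb. Pcdh8, known from the paraxial mesoderm and from synapses, had regions of 10.1 and 8.08 kb, which covered 100% and 76.3% of its 4.54 kb. Both genes thus had similar regions in the 2 replicates, with the region over the gene's RefSeq start each time. Pcdh17 had an 11.0 kb promoter region in replicate 1 and no region within 4670 kb in replicate 2. Pcdh18 and the X-linked Pcdh19, a gene linked to epilepsy in females, were 1370 and 1350 kb from the nearest region in both lists.

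The sequences at these starts are shown because H2AK119ub is known for CpG-rich promoters. RefSeq promoter sequences (GRCm38.p6) matched 22 of the 93 genes, and for each the 250 bases before the start were read. The marked Cdh11, Cdh13, Pcdh12 and Pcdhgc3 had no match and could not be read, and neither could Cdh1 and Cdh3. Where a gene had several starts, the one with the most CG was taken. Printed first are the matched marked genes Pcdh10, Pcdh8 and Cdh6, a type II cadherin. Pcdh18 and Cdh10, which had no region in either list, were added for contrast after their values were seen. Each runs 5′ to 3′ on the gene's strand, and capitals mark each CG, which reads the same on both strands.
Pcdh10 (chr3:45378148-45378397, plus strand): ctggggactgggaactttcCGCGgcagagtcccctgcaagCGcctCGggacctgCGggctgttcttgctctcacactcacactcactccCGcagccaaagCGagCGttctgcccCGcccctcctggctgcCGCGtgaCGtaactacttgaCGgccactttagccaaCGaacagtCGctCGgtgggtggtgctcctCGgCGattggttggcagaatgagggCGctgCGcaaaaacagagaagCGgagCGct
Pcdh8 (chr14:79771313-79771562, minus strand): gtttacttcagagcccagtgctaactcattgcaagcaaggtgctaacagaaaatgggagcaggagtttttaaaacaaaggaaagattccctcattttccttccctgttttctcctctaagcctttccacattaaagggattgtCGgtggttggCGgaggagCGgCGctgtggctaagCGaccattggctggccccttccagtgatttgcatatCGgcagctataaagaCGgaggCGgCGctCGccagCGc
Cdh6 (chr15:13173676-13173925, minus strand): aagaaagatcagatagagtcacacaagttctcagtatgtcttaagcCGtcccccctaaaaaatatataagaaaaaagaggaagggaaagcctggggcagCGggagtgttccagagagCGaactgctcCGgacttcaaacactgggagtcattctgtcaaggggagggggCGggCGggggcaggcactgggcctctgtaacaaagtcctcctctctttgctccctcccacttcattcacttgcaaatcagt
Pcdh18 (chr3:49757317-49757566, minus strand): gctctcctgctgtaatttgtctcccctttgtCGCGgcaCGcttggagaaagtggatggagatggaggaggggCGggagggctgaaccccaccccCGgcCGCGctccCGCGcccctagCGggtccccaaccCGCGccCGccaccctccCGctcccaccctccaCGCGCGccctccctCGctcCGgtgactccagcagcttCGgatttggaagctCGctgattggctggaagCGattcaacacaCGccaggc
Cdh10 (chr15:18820079-18820328, plus strand): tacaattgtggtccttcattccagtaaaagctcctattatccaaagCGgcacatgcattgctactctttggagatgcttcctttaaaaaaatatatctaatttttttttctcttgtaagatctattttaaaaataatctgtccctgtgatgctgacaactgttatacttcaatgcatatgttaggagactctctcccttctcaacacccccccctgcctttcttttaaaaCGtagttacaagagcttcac

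The printed stretches held 22 CG in Pcdh10, 11 in Pcdh8, 6 in Cdh6, 23 in Pcdh18 and 2 in Cdh10. Of 17274 protein-coding genes with a sequence, 21.6% had as many CG as Pcdh10, 51.2% as many as Pcdh8, 65.1% as many as Cdh6, 19.3% as many as Pcdh18 and 85.0% as many as Cdh10. Pcdh18 was picked with its value known and had the highest count of the genes that no promoter region named. Its closeness to Pcdh10 in CG count follows from that pick. The marked Cdh6 had fewer CG than either. Across the genome the median was 17 CG in 1444 marked genes and 10 in 14575 genes that no promoter region named. In the set it was 7 in the 17 genes that no promoter region named, which ranged from 0 in Cdh26 to 23 in Pcdh18. Cdh22 with 30 and Pcdh17 with 21, both named in replicate 1 alone, were among the 5 highest. These counts describe the letters of a fixed window and say nothing of regions lying further from the start.

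**Figure D2:**
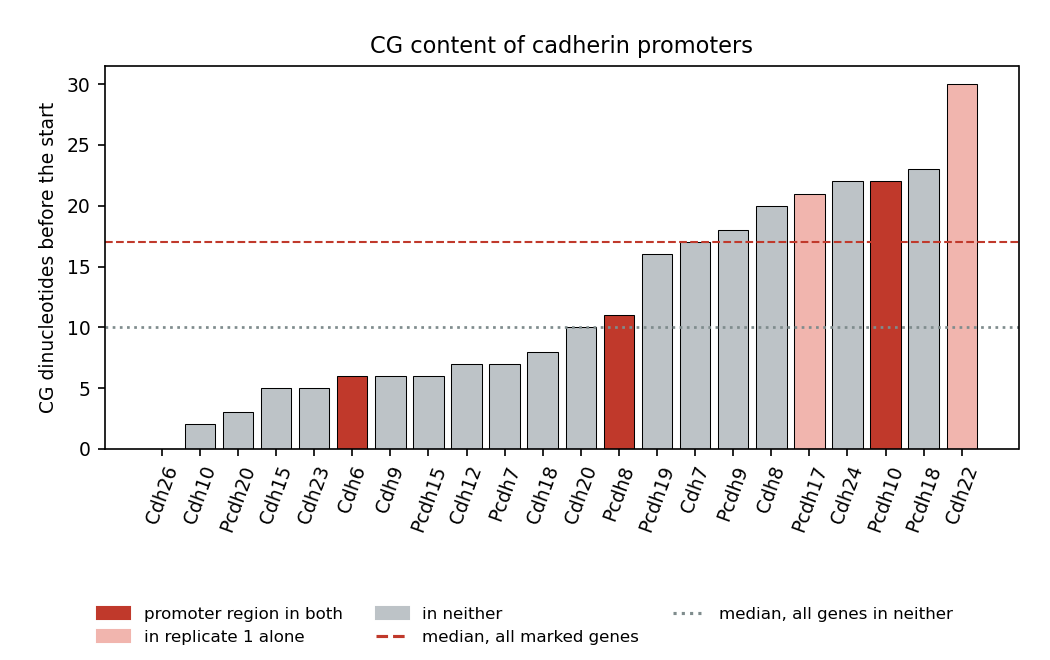
Number of CG dinucleotides in the 250 bases before the start (vertical axis) for the 22 genes with a RefSeq promoter sequence, sorted, with the color giving the replicates in which a promoter region named the gene. The dashed and dotted lines are the genome-wide medians of 17 for marked genes and 10 for genes that no promoter region named. The 3 marked genes with a sequence, of 7 marked in the set, are spread from 6 to 22 CG, and 6 of the bars above the dotted line belong to genes with no promoter region.

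The other non-clustered protocadherins included 1 further marked gene. Pcdh12, the protocadherin of endothelial cells, had promoter regions of 10.3 and 9.41 kb that shared 9296 bp, or 90.2% and 98.8% of their widths. Pcdh15, a protein of the tip links of inner ear hair cells, and Pcdh20 had no region in either list. None of the 4 delta-1 protocadherins (Pcdh1, Pcdh7, Pcdh9 and Pcdh11x) was named or overlapped. The nearest region to Pcdh7 lay 4180 kb away in both replicates. Pcdh1, which is known from airway epithelium, had its nearest regions 67.0 and 66.9 kb away, at Pcdh12. Of these neighbours, Pcdh12 had a region in both replicates and Pcdh1 in neither.

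Type I classical cadherins had no marked gene among 5. The E-cadherin gene Cdh1 had no region over it, and the nearest lay 86.8 kb away in replicate 1 and 258 kb in replicate 2. The adjacent P-cadherin gene Cdh3 had a gene body region of 2.29 kb in replicate 1, narrower than the median region of that list, while in replicate 2 the nearest region lay 371 kb away. Cdh2, the N-cadherin of mesenchyme and neurons, lay 1500 and 1510 kb from the nearest region. Cdh15, the M-cadherin of muscle precursors, had a distal region of 3.29 and 3.43 kb, ending 11.3 kb before its start in both replicates.

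Cdh4, the R-cadherin of retina and brain, had 3 regions in replicate 1 and 4 in replicate 2. The promoter region of 16.3 kb was in replicate 1 only. Within the gene, regions of 27.6 kb in replicate 1 and 36.0 kb in replicate 2 lay about midway along its 457 kb and shared 19952 bp, and they were the widest regions named for any gene of the set. A second pair of 10.3 and 9.89 kb, from 374 to 384 kb along the gene, shared 9875 bp. Replicate 2 also had gene body regions of 6.90 and 1.41 kb without a partner. Regions covered 9% of the gene in replicate 1 and 11.9% in replicate 2, so Cdh4 was covered inside the gene in both replicates while its promoter call was not repeated.

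**Figure D3:**
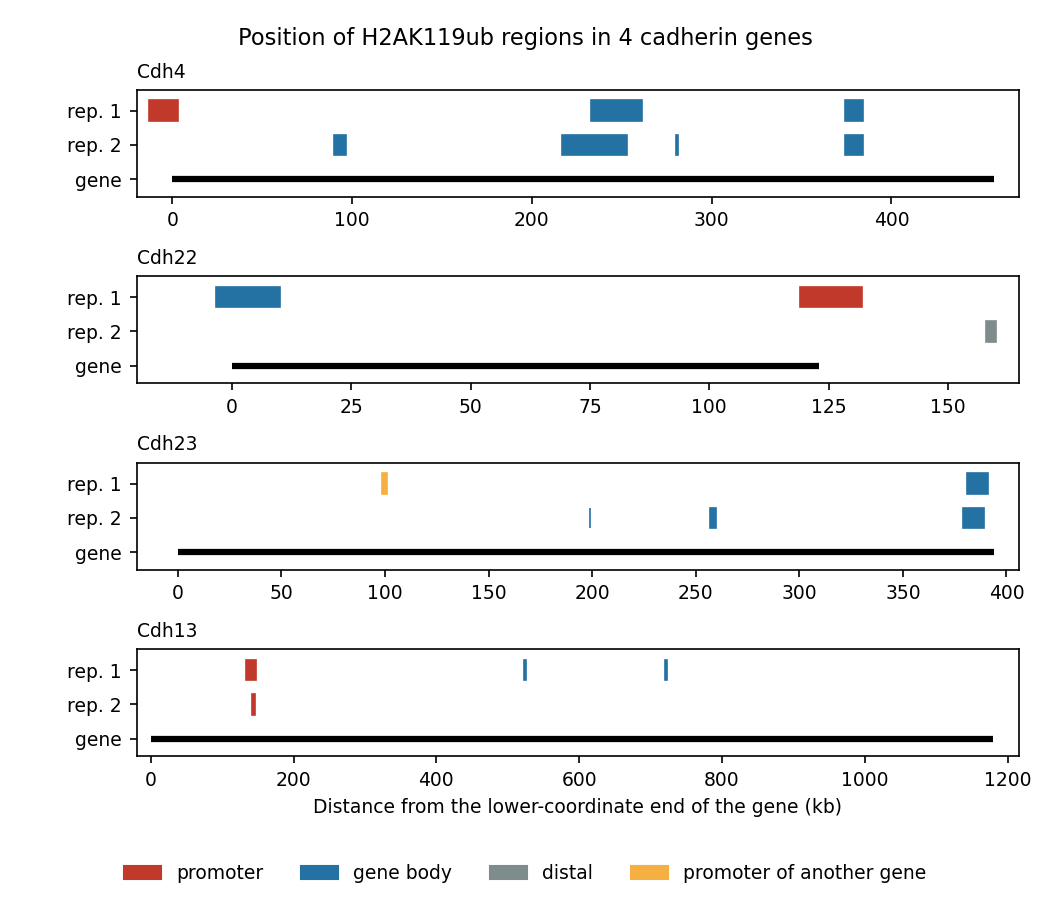
Position of the regions along Cdh4, Cdh22, Cdh23 and Cdh13 (horizontal axes, kb from the end of the gene with the lower coordinate, one scale per gene), with the gene as a black bar and 1 row per replicate, colored by location class. The inner pairs of Cdh4, the right-hand pair of Cdh23 and the promoter pair of Cdh13 line up between replicates, and no region of Cdh22 does.

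Type II cadherins had 2 marked genes of 13. Cdh11, the cadherin of mesenchyme and bone-forming cells, had promoter regions of 8.91 and 4.79 kb, and the narrower lay wholly inside the wider. Cdh6, the kidney cadherin, which is also expressed in neural crest, had a single promoter region of 6.37 kb in replicate 1 and a pair of 0.765 and 2.41 kb in replicate 2. Both of the latter lay inside the replicate 1 region. The Cdh6 start beside the sequence printed above lay in the 2.41 kb region. That start is inside the RefSeq gene bounds, whose upper end at 13176407 was reached by the replicate 1 region only. Cdh22, a cadherin of brain, had a promoter region and a gene body region in replicate 1, both of 13.3 kb. In replicate 2 its only region was a distal one of 1.97 kb, 34.2 kb outside the gene, so none of its regions coincided. Cdh5, the VE-cadherin of endothelium, carried its name on a distal region of 2.61 kb in replicate 1 alone, 28.8 kb from the gene. In replicate 2 a 1.63 kb promoter region named for another gene lay over Cdh5. It is thus among the 11 genes outside the clusters with a region in both replicates, though these regions did not coincide. The 9 remaining genes, among them the Schwann cell cadherin Cdh19 and the neural Cdh7, Cdh8, Cdh9 and Cdh10, had no region in either list.

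Of the other Cdh genes, Cdh13 was marked. It encodes T-cadherin, which is tied to the membrane by a lipid anchor and has no cytoplasmic tail. Its promoter regions measured 15.4 and 3.64 kb, and the narrower lay wholly inside the wider. They began 133 and 142 kb inside the lower-coordinate end of the RefSeq gene bounds, so the promoter class followed another start than that bound. Replicate 1 had 2 further gene body regions in Cdh13, of 3.07 and 2.70 kb. Cdh23, the tip-link partner of Pcdh15, had gene body regions of 9.70 and 10.7 kb that shared 8096 bp and lay 2745 and 4351 bp from its RefSeq start. Replicate 2 had 2 further gene body regions in Cdh23, of 0.646 and 3.14 kb, without a partner. Cdh26 had a distal region of 2.03 kb in replicate 1, 4.07 kb from the gene. Cdh16 and Cdh17, the kidney and intestinal cadherins, had none.

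**Figure D4:**
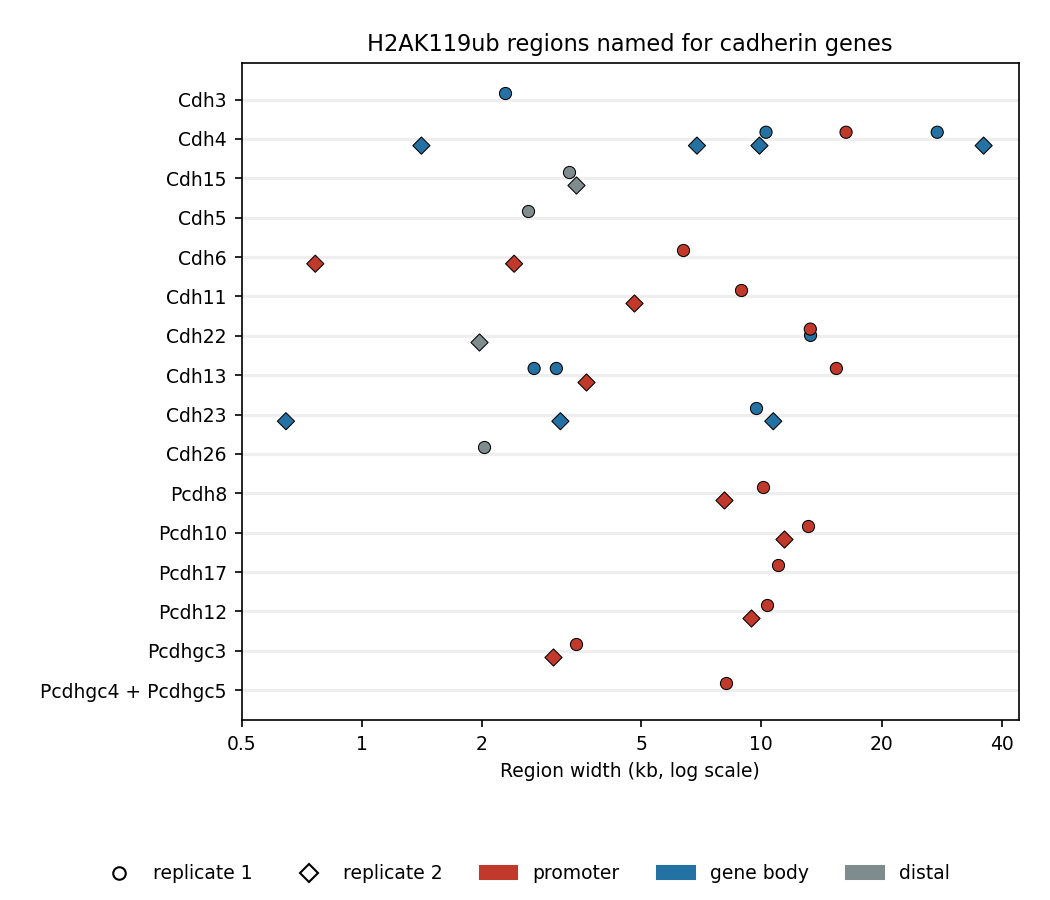
Width in kb (horizontal log axis) of each region named for a cadherin or protocadherin gene, with circles for replicate 1, diamonds for replicate 2 and color for the location class. In the 7 marked genes the widest promoter region of replicate 1 exceeds that of replicate 2, and the widest points are the Cdh4 gene body regions of 27.6 and 36.0 kb.

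The clustered protocadherins lie in 3 arrays on chromosome 18, from 36930285 to 37841873 (912 kb). Each variable exon of the Pcdha and Pcdhg arrays has a promoter of its own and is spliced to shared constant exons, so the RefSeq bounds of most genes in an array overlap. The Pcdha array (14 genes) and the Pcdhb array (22 genes) had no region in either list, and the nearest to the Pcdhb array lay 281 kb away in both. The Pcdhg array had 2 regions in replicate 1 and 1 in replicate 2, all at its far end. The replicate 1 promoter region named for Pcdhgc3 spanned 37802478 to 37805920 (3.44 kb). Its replicate 2 counterpart spanned 37802838 to 37805853 (3.02 kb) and lay wholly inside it. They ended 490 and 557 bp before the RefSeq bounds of Pcdhgc3. In replicate 1 a second region of 8.18 kb (37815358 to 37823533) named Pcdhgc4 and Pcdhgc5 and had no partner in replicate 2.

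These 3 genes are the C-type isoforms of the Pcdhg array, which are not chosen at random from cell to cell as the other isoforms are. No region named any of the A-type or B-type Pcdhg genes, although the Pcdhgc3 region crossed the bounds of 19 genes of the array, the pseudogene included. Counting by overlap alone would therefore credit a single stretch of 3.44 kb to many genes. Regions covered 1.27% of the 912 kb in replicate 1 and 0.331% in replicate 2 (mean 0.803% ± 0.667, SD, n = 2), while all regions covered 2.3% and 2.02% of the gene-bearing genome.

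**Figure D5:**
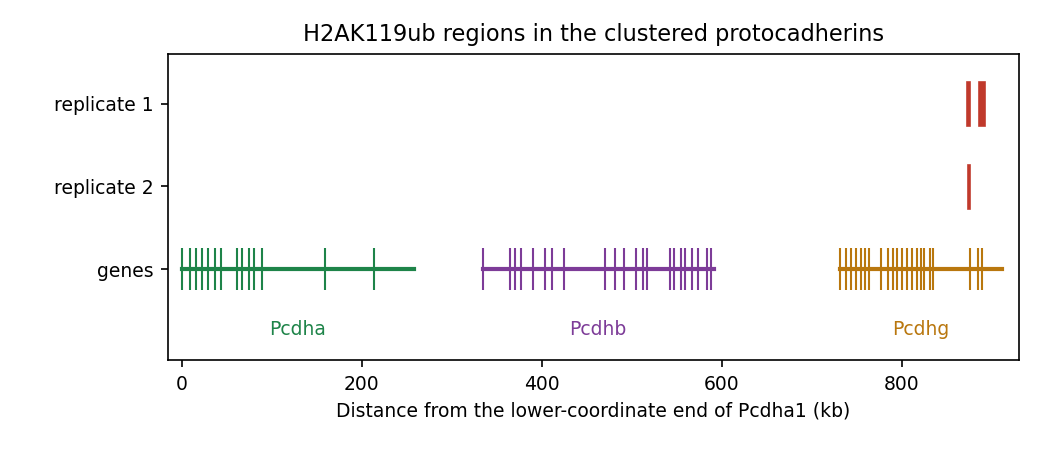
Regions of each replicate (red) along the clustered protocadherins, in kb from the lower-coordinate end of Pcdha1, with a tick at the lower-coordinate end of each gene in the Pcdha, Pcdhb and Pcdhg arrays. All regions stand at the right-hand end of the Pcdhg array, 2 in replicate 1 and 1 in replicate 2.

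The replicates were compared over all regions of the set. In replicate 1, 11 of 22 overlapped a region of the other list (50%, exact 95% binomial interval 28.2 to 71.8%), beside 61.1% of that whole list. In replicate 2, 12 of 18 did (66.7%, interval 41 to 86.7%), beside 61.2%. Overlap is mutual, so the pooled share of 23 of 40 (57.5%) holds each shared pair from both sides and carries no interval of its own. Promoter regions of the set were shared in 15 of 21 cases (71.4%) and gene body regions in 6 of 14 (42.9%), near the 73.6% and 53.1% of all regions of those classes. By gene, 28 of 92 had regions that overlapped each other between replicates (30.4%, against a background of 15.4%). Of these, 19 were Pcdhg genes that all rest on the single pair of regions named for Pcdhgc3. Outside the clusters, 9 of 35 genes had such regions (25.7%). These 9 were the 6 marked genes outside the clusters with Cdh4, Cdh15 and Cdh23.

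Promoter regions named for the set had a median width of 10.3 kb in replicate 1 and 4.22 kb in replicate 2, where those of all genes had 8.08 and 6.84 kb. The widest promoter region of a gene was wider in replicate 1 in 7 of 7 marked genes, against 61.1% of the 1908 marked genes of the genome. The depth of either library is unknown. No marked gene of the set had a region near the widths of the broadest domains in the lists, which reached 192 and 179 kb. The widest in replicate 1, that of Cdh13, stood at the 77.7 percentile of promoter regions, and the widest in replicate 2, that of Pcdh10, at the 72.2 percentile.

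Gene length was set beside these counts. The 35 genes outside the clusters had a median length of 123 kb, against 17.3 kb over all protein-coding genes. Among genes of 100 kb or longer, 6 of 19 in the set had a region in both replicates (31.6%), beside 29.8% of the 2427 such genes in the genome. Among shorter genes the values were 5 of 16 (31.2%) and 15.2%. Marked were 3 of the 19 long genes (15.8%, beside 11.3%) and 3 of the 16 shorter ones (18.8%, beside 8.50%). The share of gene length under regions lay lower in the set. It was 1.24% and 0.952% in replicates 1 and 2, beside 2.88% and 2.55% over all protein-coding genes. For the long genes it was 1.06% and 0.829%, beside 1.61% and 1.33%. For the shorter ones it was 3.96% and 2.79%, beside 4.74% and 4.32%. Of the 5 non-clustered protocadherins that long, Pcdh7, Pcdh9, Pcdh11x, Pcdh15 and Pcdh19, none had a region in either list.

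Other genes of cadherin-based adhesion were listed by their known role, and 2 of 54 were marked (3.70%, against the same background of 8.82%). Nectin1, an adhesion protein that works beside E-cadherin, had promoter regions of up to 14.1 and 12.7 kb, and Clstn2, a cadherin-related protein of synapses, of 4.93 and 4.47 kb. None of the 14 catenin and plaque genes had a region naming or overlapping it in either list, Ctnnb1, Ctnna1, Jup and Dsp included. The same held for the 9 desmosomal cadherins (Dsg1a, Dsg1b, Dsg1c, Dsg2, Dsg3, Dsg4, Dsc1, Dsc2 and Dsc3), which hold keratinocytes together. None was found either at the 9 genes of factors that act at the protocadherin clusters, such as Ctcf and Rad21. Among 18 large and cadherin-related genes, Fat3, Celsr1 and Ret had a region in both replicates without being marked. In all, 45 of the 54 genes had no region in either list (the desmosomal genes lie side by side), and 71.5% of all protein-coding genes had none.

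The lists hold regions of a histone mark and no transcript levels, so the epithelial identity of the cells could not be read from them directly. Over all protein-coding genes, 71.5% had no region in either list and 8.82% were marked. The few genes below are therefore listed without being read as a sign of cell identity. Of 5 epithelial genes, Epcam, Krt14, Trp63 and Cdh1 had no region naming or overlapping them, and Krt5 was named in replicate 2 alone, by a promoter region 14.9 kb wide. Of genes of other cell types, Pdgfra of fibroblasts, Sox10 of neural crest and Schwann cells and Myod1 of muscle were marked. The endothelial Kdr and the fibroblast gene Col1a1 were named by a promoter region in replicate 1 alone, and Pecam1, Cdh5, Col1a2, Ptprc, Cd68, Cdh19, Cdh15 and Des by no promoter region in either list.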

How the data were processed

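Each H2AK119ub replicate has its own deposited list of regions, called by the authors per sample, with chromosome, first and last coordinate in mm10, location class and gene names, per the file headers. Per the labels' protocols, each library took 4 ng of DNA. The submitters' processing notes list SAMtools 0.1.19 and Bowtie2 2.3.3 without saying what each did. How peaks were called, and at what distances the location classes were set, is not given in the sources used here. Neither list has a height, count or p-value, so depth is unknown and the values are presence and width. Widths were taken as last minus first coordinate plus 1.

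Gene names were matched to RefSeq by symbol, then by a synonym held by 1 gene. Overlap was counted from 1 bp. Shares carry exact (Clopper-Pearson) 95% binomial intervals. With 1 group of 2 replicates there was no comparison between groups and no test. Interval functions were tested on simulated data. The genes, subfamilies and lists were chosen with earlier results of these data known. By the naming rule, every gene with a region was accounted for, together with Cdh1, Cdh2, Cdh3, Cdh5, Cdh11, Cdh13, Pcdh1 and Pcdh7. Other genes without a region were chosen for naming afterwards, and so were those of the adhesion list beyond its marked genes and desmosomal cadherins. Some listed genes are not reported here. Alternatives left out each replicate, used either replicate, tied genes to regions in other ways and required wider regions. The software was Python 3.11.15 with pandas 2.3.3, scipy 1.17.1, numpy 2.4.6 and, for plots, matplotlib 3.10.9.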

Additional observations from a re-analysis of the deposited data

How the results depend on the processing

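The 9 results were recomputed under alternatives, which gave 52 values, and 31 of these stayed within 1.5 times the reported count, or within the error of the reported share or width. The 31 include the alternatives of the pooled share of shared regions (45.0, 63.6 and 71.4%). That pooled share holds each shared pair from both sides, so its error is no sound measure for them. The 7 marked genes of the set became 7 when replicate 1 was left out and 12 when replicate 2 was left out. They became 12 with either replicate and 11 with any location class. With a region within 5000 bp of a gene end in both replicates, they stayed at 7 of 92. With overlap of the gene bounds they became 26, and with regions above the median width of their list 4. For the clustered genes, the count of 1 became 1 and 3 with 1 replicate, 3 with either replicate, 18 with overlap of the gene bounds and 0 with wider regions. For the Cdh genes, the count of 3 became 3 and 5 with 1 replicate, 5 with either replicate, 7 with any class, 5 with overlap and 1 with wider regions. The 2 marked genes of the adhesion list became 3 and 5 with 1 replicate, 6 with either replicate, 4 with any class, 5 with overlap and 5 within 5000 bp of a gene end. The 30 genes with any region in both replicates became 6 with wider regions and 11 without the clustered genes, an alternative chosen after seeing the data. Of all protein-coding genes, 15.3% were named by any class in both replicates, 13.3% were overlapped and 14.1% had a region within 5000 bp of an end. For naming in either replicate and for regions above the median width, no share over all genes is given. Those counts stand without a background and are not read as particular to the set. The rise in the clustered count under overlap comes from the Pcdhgc3 region, which crosses many gene bounds, and wider regions leave fewer to count. The cause of the other changes was not tested. The 3 marked non-clustered protocadherins stayed at 3 or 4 under each of their alternatives. With 2 replicates, leaving out 1 keeps a mean within its SD, so widths and cover could not change by that measure. No paired analysis was possible because the replicates form 1 group. Without read depth, a region missing from 1 list cannot be told from one below the caller's limit.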

Other observations

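Some regions over genes of the set carried the names of other genes. In replicate 1 a 2.33 kb promoter region named for Gm17455, a protein-coding gene inside the bounds of Cdh23, lay over Cdh23 and had no partner in replicate 2. In replicate 2 a 1.63 kb promoter region named for the long noncoding RNA gene Gm29682 lay over Cdh5 and had no partner in replicate 1. The promoter regions of Pcdh10 also named the long noncoding RNA gene 2610316D01Rik in both replicates, whose bounds (chromosome 3, 45280439 to 45378260) end beside the start of Pcdh10. Those of Pcdh8 also named Gm9748, a long noncoding RNA gene (chromosome 14, 79769908 to 79772742) whose bounds overlap Pcdh8. The lists give a region no strand, so it cannot be told which gene of such a pair a region belongs to.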
